A study of Homo sapiens with 12 samples.

Results

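The genes described here are 38 interferon-stimulated effector genes, taken by symbol from the 28008 genes of the count tables, and all 38 have a row in the tables of both cell lines. They encode proteins that act against viruses or that modify the interferon response, and they were grouped by role into the IFIT, OAS, Mx, membrane restriction, ISG15 conjugation, ADP-ribosylation, DDX60 and SAMD9, nucleotide enzyme and IFI-named groups, with the remaining genes as other effectors. RNA was sequenced from QGP-1 and BON-1, established human pancreatic neuroendocrine tumor (pNET) lines, each transduced with a puromycin-selected tet-MUC1shRNA vector, in which doxycycline (DOX) switches on a hairpin against the MUC1 transcript. Each line was cultured for 7 days with 500 ng/mL DOX or with 0.1% DMSO as vehicle, with 3 cultures sequenced per condition, which gave 4 groups (QGP-1 vehicle, QGP-1 DOX, BON-1 vehicle and BON-1 DOX) and 12 libraries. The comparison of DOX with vehicle asked what changes when MUC1-C is silenced. No library of DOX-treated cells with a control hairpin was analysed here, so an effect of DOX itself and an effect of the hairpin cannot be told apart. QGP-1 cells were kept in RPMI medium and BON-1 cells in DMEM/F-12. Cell line, medium and any difference in handling or sequencing between the lines thus cannot be told apart either.

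Type I and type III interferons bind receptors on the cell surface, and the receptor-bound kinases JAK1 and TYK2 then phosphorylate STAT factors. Together with IRF9 these factors form the complex ISGF3, which binds the interferon-stimulated response element (ISRE) in promoters and switches on a broad antiviral program. In tumor cells the same genes can be expressed without infection.

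MUC1 was measured at 7.37, 5.95 and 5.79 CPM (counts scaled to library size) in the QGP-1 vehicle libraries and at 0.722, 1.07 and 0.762 CPM with DOX. The BON-1 libraries held 20.2, 20.1 and 15.0 CPM of MUC1 with vehicle and 1.42, 2.60 and 3.93 CPM with DOX. MUC1 thus fell in both lines, with log2 fold changes of -2.91 ± 0.23 (SE) in QGP-1 and -2.79 ± 0.22 in BON-1 cells, and no library of 1 group overlapped the other. Library totals were 38224144 to 50525926 counts in QGP-1 and 15981954 to 28484324 counts in BON-1 cells, so a given CPM rests on fewer counts in BON-1. CPM values are scaled by TMM over the 12 libraries. The neuroendocrine markers CHGA, CHGB, SYP and INSM1 and the epithelial markers EPCAM, KRT8, KRT18 and CDH1 were expressed in all 12 libraries. NCAM1, another neuroendocrine marker, was near 0 in BON-1 cells, at a mean of 0.0588 CPM with vehicle. In bulk RNA, fewer cells expressing a gene and less of its RNA per cell cannot be told apart.

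DOX treatment of BON-1/tet-MUC1shRNA cells was associated with lower levels of most of the effector genes. Of the 35 members with enough counts to be tested, 29 were lower at an adjusted p under 0.05, whereas 18.3% of the 14625 genes tested were lower (edgeR's quasi-likelihood test, Benjamini-Hochberg adjustment over all genes). None of the members was called higher by edgeR, where 17.0% of all genes were, and none was higher at an unadjusted p under 0.05 or by DESeq2. The median log2 fold change of the 35 members was -0.97, beside -0.01 for all genes tested. A fall of at least 1 on the log2 scale was called for 17 members, against 3.06% of all genes. The fold change was below 0 for 34 members, the exception being ISG20. XAF1, TRIM22 and SAMD9L had too few counts to be tested in either line, and IFI44L passed the filter on low counts only through its vehicle libraries, so its fall was a condition of its being tested. Of the other 34 tested members, 28 were called lower.

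**Figure D1:**
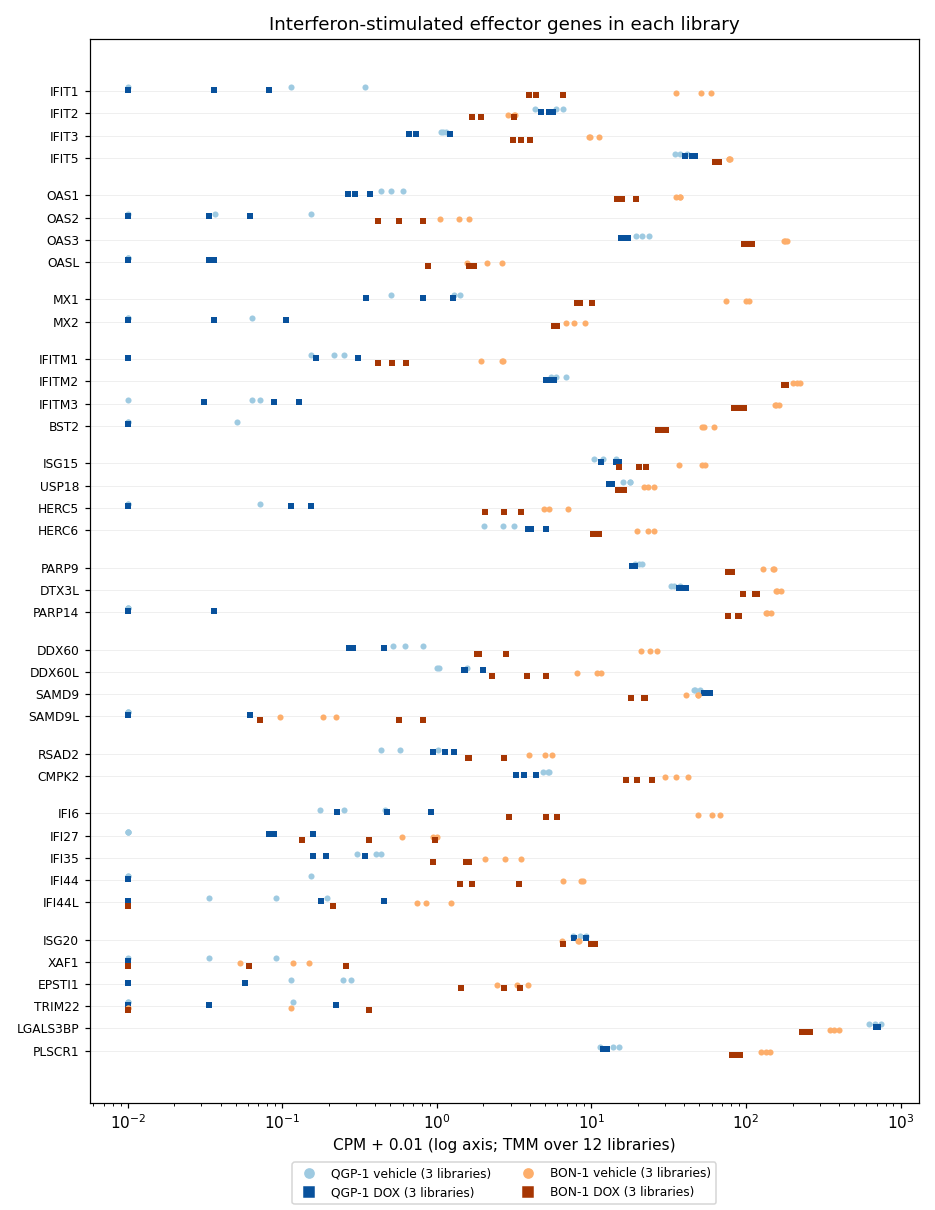
CPM of the 38 members (rows, ordered by role) in the 12 libraries, on a log axis after adding 0.01. Points are single libraries, circles for vehicle and squares for DOX, with QGP-1 in light and dark blue and BON-1 in light and dark orange. The BON-1 squares lie left of the BON-1 circles for most rows, and most QGP-1 points lie well to the left of both.

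The 5 members with the lowest fold changes in BON-1 cells were also among the 20 lowest of the 14625 genes tested. IFI6, an interferon-induced protein that localizes to the endoplasmic reticulum and mitochondria, was measured at 60.4, 68.0 and 49.2 CPM with vehicle and 6.01, 5.09 and 2.92 CPM with DOX. Its log2 fold change was -3.69 ± 0.16 (adjusted p = 4.4e-16, edgeR). The highest DOX library was thus far below the lowest vehicle library. DDX60, a helicase-like protein that takes part in RNA sensing, fell from 21.0, 26.7 and 24.1 CPM to 1.86, 2.80 and 1.81 CPM, a log2 fold change of -3.47 ± 0.18 (adjusted p = 1.8e-14). MX1, a GTPase that traps viral ribonucleoproteins, fell from 73.9, 104 and 100.3 CPM to 8.11, 10.1 and 8.37 CPM, a log2 fold change of -3.39 ± 0.13 (adjusted p = 2.6e-17). For these genes the DOX libraries lay close together and well apart from the vehicle libraries. IFIT1, which binds viral RNA that lacks the host cap methylation, fell from 35.2, 59.1 and 51.1 CPM to 4.40, 6.57 and 3.93 CPM, a log2 fold change of -3.29 ± 0.18 (adjusted p = 2.7e-14). IFI44L, a feedback regulator of the interferon response, had few counts, 24, 17 and 23 raw counts with vehicle and 0, 4 and 0 with DOX. Its log2 fold change of -3.60 ± 0.81 (adjusted p = 8.9e-04) therefore rests on few counts and has a wide interval, -5.25 to -1.94. The calls of IFI6, DDX60, MX1 and IFIT1 held when each library was left out in turn. That of IFI44L held too, but its fall was a condition of its being tested, so nothing is read from this. Without BON-1 DOX replicate 2, the only DOX library with IFI44L counts, its fitted log2 fold change was -7.32. That value stands against 0 counts and is no measure of size.

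Promoters of these genes were read from RefSeq windows of 300 bases (250 before to 50 after the transcription start, GRCh38.p14) and searched for the ISRE core, TTTC followed by any 2 bases and TTTC again, on either strand, which from the other strand reads as a pair of GAAA with any 2 bases between them. Matches may overlap. At least 1 window held the core for 25 of the 31 members with a window (80.6%), compared with 1195 of 27305 genes (4.38%) and 1255 of 35116 windows (3.57%). The stretches below show the matches in the 5 members with the lowest fold changes, then in ISG15 (2.47-fold lower in BON-1 cells), IFIT5 (1.20-fold lower) and ISG20 (no call). Capitals mark the matches, and 12 bases are shown on each side, 5′ to 3′ on the strand of the gene. The stretches lie at chr1:27672264-27672360 (minus strand) for IFI6, chr1:78620272-78620396 (plus) for IFI44L, chr4:168318784-168318852 (minus) for DDX60, chr21:41420557-41420590 (plus) for MX1, chr10:89392495-89392541 (plus) for IFIT1, chr1:1013372-1013411 (plus) for ISG15, chr10:89414511-89414585 (plus) for IFIT5 and chr15:88638935-88638968 (plus) for ISG20.
IFI6: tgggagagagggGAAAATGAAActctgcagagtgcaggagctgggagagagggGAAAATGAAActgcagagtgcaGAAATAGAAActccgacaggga
IFI44L: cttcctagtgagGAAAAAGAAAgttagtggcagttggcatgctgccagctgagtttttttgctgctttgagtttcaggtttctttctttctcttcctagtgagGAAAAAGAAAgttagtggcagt
DDX60: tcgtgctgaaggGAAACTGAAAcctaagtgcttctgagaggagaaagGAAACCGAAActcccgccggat
MX1: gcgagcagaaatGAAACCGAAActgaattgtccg
IFIT1: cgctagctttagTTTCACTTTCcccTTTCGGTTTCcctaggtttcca
ISG15: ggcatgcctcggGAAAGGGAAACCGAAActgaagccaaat
IFIT5: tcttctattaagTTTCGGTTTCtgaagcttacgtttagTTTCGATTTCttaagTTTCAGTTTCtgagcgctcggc
ISG20: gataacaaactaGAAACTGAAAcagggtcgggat
The IFI6 window held 3 matches, which begin between 156 and 93 bases before the start, and the ISG15 window held 2 that share bases. IFIT5, with 3 matches that begin 45 to 4 bases before the start, was among the members that changed least. Of the 25 members with a match, 22 were lower with DOX in BON-1 cells, against 18.3% of all genes tested, with a median log2 fold change of -1.05. IFI44L, whose fall was a condition of its being tested, is among the 22. The share called among all genes with a match is not given here. All 4 tested members with a window but no match (OAS1, HERC6, CMPK2 and IFI35) were lower too, with a median of -1.07. IFIT2, IFITM2, MX2, OAS2, OASL, USP18 and TRIM22 had no window and were not searched. A match is a run of letters and was not tested as a binding site.

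The IFIT genes lie together on chromosome 10, at chr10:89283694-89421605 (GRCh38, GENCODE v44), and encode proteins that bind viral RNA. Of the 4 members, 3 were lower in BON-1 cells with DOX, by 9.77-fold for IFIT1 and by less for IFIT3 and IFIT5. IFIT3, a partner of IFIT1, was measured at 9.75, 11.2 and 9.66 CPM with vehicle and 3.10, 3.51 and 3.98 CPM with DOX, a fall of 2.90-fold (adjusted p = 3.5e-07). IFIT5 fell from 77.8, 78.3 and 77.7 CPM to 62.7, 66.8 and 66.1 CPM, which is 1.20-fold (adjusted p = 0.0103). The IFIT5 libraries of the groups did not overlap, although the difference was small. IFIT2 was measured at 3.17, 3.15 and 2.88 CPM and 1.67, 3.16 and 1.91 CPM, groups that overlap, with a log2 fold change of -0.45 (95% interval -1.06 to 0.16). IFIT1, IFIT2 and IFIT3 overlap LIPA on the other strand, as MX1 overlaps TMPRSS2 and DDX60L overlaps PALLD, and whether the counting used strand is not given in the sources used here. Thus within a single gene cluster the fold change ranged from -3.29 to -0.27 on the log2 scale.

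OAS proteins make the second messenger that activates RNase L, and OAS1, OAS3 and OAS2 are neighbours at chr12:112905856-113011723. OAS1 fell from 37.5, 37.5 and 35.3 CPM with vehicle to 14.7, 19.4 and 15.9 CPM with DOX in BON-1 cells (2.22-fold, adjusted p = 7.1e-09). OAS3 fell from 175, 178 and 183 CPM to 96.5, 109 and 104 CPM (1.74-fold, adjusted p = 3.2e-09). Both genes separated the groups with no overlap. OAS2 was lower by 2.30-fold (adjusted p = 0.0489) at 1.05, 1.60 and 1.39 CPM and 0.805, 0.560 and 0.403 CPM, but no fit that left out a library called it, with log2 fold changes of -1.49 to -0.995. OASL, which has no synthetase activity and enhances RIG-I signaling, was measured at 1.57, 2.11 and 2.62 CPM and 1.73, 0.865 and 1.61 CPM, and its groups overlap (log2 fold change -0.58, 95% interval -1.35 to 0.19).

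MX2 lies beside MX1 at chr21:41361999-41470071 and is best known as a restriction factor of HIV. In contrast with MX1, its level was 6.79, 7.68 and 9.07 CPM with vehicle and 5.76, 5.75 and 5.95 CPM with DOX, a log2 fold change of -0.44 ± 0.19 that was not called (adjusted p = 0.0719), although every DOX library was below every vehicle library. MX2 was called when BON-1 vehicle replicate 1 was left out. Per length, MX2 stood at 5.34, 6.38 and 7.32 TPM in the BON-1 vehicle libraries and MX1 at 46.0, 68.5 and 64.2 TPM, on a scale that left out 3 abundant noncoding RNAs.

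The membrane restriction factors block viral entry (IFITM1, IFITM2 and IFITM3) or hold budding virions at the cell surface (BST2, also called tetherin), and all 4 were lower with DOX in BON-1 cells. IFITM1 fell from 2.61, 2.67 and 1.92 CPM to 0.619, 0.407 and 0.504 CPM, a log2 fold change of -2.25 ± 0.42 (adjusted p = 1.1e-04). IFITM3 fell from 162, 157 and 154 CPM to 88.7, 96.8 and 83.6 CPM (1.77-fold, adjusted p = 3.4e-09). IFITM2 fell only from 225, 201 and 214 CPM to 182, 176 and 181 CPM (1.20-fold, adjusted p = 0.00739). None of the 3 IFITM genes overlapped between groups, but the sizes differ. The IFITM genes are closely related neighbours at chr11:303655-329475, the annotation lists 12 IFITM pseudogenes, and how reads that match several copies were counted is not given in the sources used here, so the split among them is uncertain. BST2 fell from 51.7, 61.8 and 53.3 CPM to 26.8, 30.4 and 28.7 CPM (1.95-fold, adjusted p = 1.0e-08), with no overlap.

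ISG15 is a ubiquitin-like protein that is attached to other proteins, HERC5 is the human ligase for it, HERC6 is a relative of HERC5, and USP18 removes ISG15 and dampens receptor signaling. All 4 genes were lower with DOX in BON-1 cells, and none overlapped between groups. ISG15 fell from 37.0, 51.7 and 54.2 CPM to 20.4, 22.7 and 15.1 CPM (2.47-fold, adjusted p = 2.4e-08). HERC5 fell from 5.30, 4.96 and 6.99 CPM to 2.04, 3.51 and 2.72 CPM (2.07-fold, adjusted p = 0.0013). HERC6 fell from 19.6, 23.3 and 25.5 CPM to 10.2, 11.1 and 10.5 CPM (2.15-fold, adjusted p = 2.8e-07). The HERC genes are neighbours at chr4:88378739-88506163. USP18 showed the smallest change of the group, from 25.5, 23.1 and 21.7 CPM to 15.5, 16.1 and 14.9 CPM (1.52-fold, adjusted p = 2.3e-04). USP18 has a closely related copy, USP41, and how reads that match both were counted is not given, so the USP18 values in both lines are uncertain to that extent.

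PARP9, DTX3L and PARP14 at chr3:122527924-122730840 act in ADP-ribosylation, and PARP9 works as a dimer with the ubiquitin ligase DTX3L. PARP9 fell from 128, 148 and 153 CPM to 75.9, 80.7 and 78.8 CPM (1.84-fold, adjusted p = 2.7e-09) in BON-1 cells with DOX. DTX3L fell from 156, 168 and 159 CPM to 95.2, 114 and 117 CPM (1.49-fold, adjusted p = 2.4e-06). PARP14 fell from 135, 136 and 145 CPM to 76.7, 89.4 and 90.1 CPM (1.64-fold, adjusted p = 7.0e-08). All 3 were called with no overlap and by less than 1 on the log2 scale. PARP9 and DTX3L overlap on opposite strands, as do RSAD2 and CMPK2 below, so the same limit applies to them.

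DDX60L, the neighbour of DDX60 at chr4:168216291-168537786, fell from 8.05, 11.5 and 10.8 CPM to 3.84, 5.04 and 2.27 CPM (2.73-fold, adjusted p = 1.3e-05). SAMD9, which limits poxvirus replication, fell from 40.9, 48.8 and 49.1 CPM to 22.0, 22.1 and 18.1 CPM (2.24-fold, adjusted p = 3.4e-09). Neither gene overlapped between the BON-1 groups. SAMD9L, beside SAMD9 at chr7:93099513-93148385, had 5, 2 and 4 raw counts with vehicle and 1, 11 and 16 with DOX and was not tested. When BON-1 DOX replicate 1 was left out, SAMD9L passed the filter and was called higher (log2 fold change 2.07, adjusted p = 0.048), the only member called higher in BON-1 cells in any fit.

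RSAD2, also called viperin, makes a chain-terminating nucleotide from CTP, and CMPK2 is a mitochondrial nucleotide kinase encoded beside it at chr2:6840570-6898239. RSAD2 fell from 3.94, 5.52 and 5.02 CPM to 1.61, 1.58 and 2.72 CPM in BON-1 cells (2.44-fold, adjusted p = 5.4e-04). CMPK2 fell from 30.0, 35.5 and 41.9 CPM to 16.7, 19.8 and 24.5 CPM (1.77-fold, adjusted p = 1.4e-05). Both genes separated the groups without overlap.

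Of the 5 IFI-named genes, 4 were lower in BON-1 cells. IFI44, which lies next to IFI44L at chr1:78619902-78664078, fell from 6.51, 8.80 and 8.54 CPM to 3.41, 1.68 and 1.41 CPM, a log2 fold change of -1.90 ± 0.27 (adjusted p = 2.2e-06). IFI35 fell from 2.75, 3.49 and 2.03 CPM to 0.929, 1.53 and 1.61 CPM (2.03-fold, adjusted p = 0.0196), a call that was lost without BON-1 vehicle replicate 2 or without DOX replicate 1. IFI27, often used as a marker of interferon activity in blood, was scarce at 0.941, 0.992 and 0.587 CPM with vehicle and 0.124, 0.356 and 0.957 CPM with DOX, and its groups overlap (log2 fold change -0.79, 95% interval -1.96 to 0.39).

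Among the other effectors, LGALS3BP and PLSCR1 were lower with DOX in BON-1 cells. LGALS3BP, a secreted glycoprotein that binds galectins, fell from 402, 373 and 348 CPM to 261, 249.5 and 229 CPM (1.53-fold, adjusted p = 6.6e-07). PLSCR1, a phospholipid scramblase, fell from 125, 142 and 135 CPM to 91.6, 86.6 and 81.1 CPM (1.56-fold, adjusted p = 5.2e-07). Neither overlapped between groups. ISG20, an exonuclease that degrades single-stranded RNA, was measured at 8.22, 6.42 and 8.27 CPM and 10.5, 9.98 and 6.55 CPM, overlapping values with a log2 fold change of 0.23 (95% interval -0.16 to 0.62). EPSTI1 was measured at 2.44, 3.28 and 3.90 CPM and 1.42, 2.70 and 3.43 CPM, which overlap as well (log2 fold change -0.34, 95% interval -0.97 to 0.30). XAF1 and TRIM22 were almost without counts, with XAF1 at 4, 1 and 2 and 4, 1 and 0 raw counts and TRIM22 at 3, 0 and 0 and 0, 0 and 7. In all, 30 of the 35 tested members had every DOX library below every vehicle library, against 23.0% of all genes tested. None had every DOX library above, against 22.8%. Of the 29 calls, 27 held whichever BON-1 library was left out. IFI44L, whose fall was a condition of its being tested, is among the 30 and the 27.

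**Figure D2:**
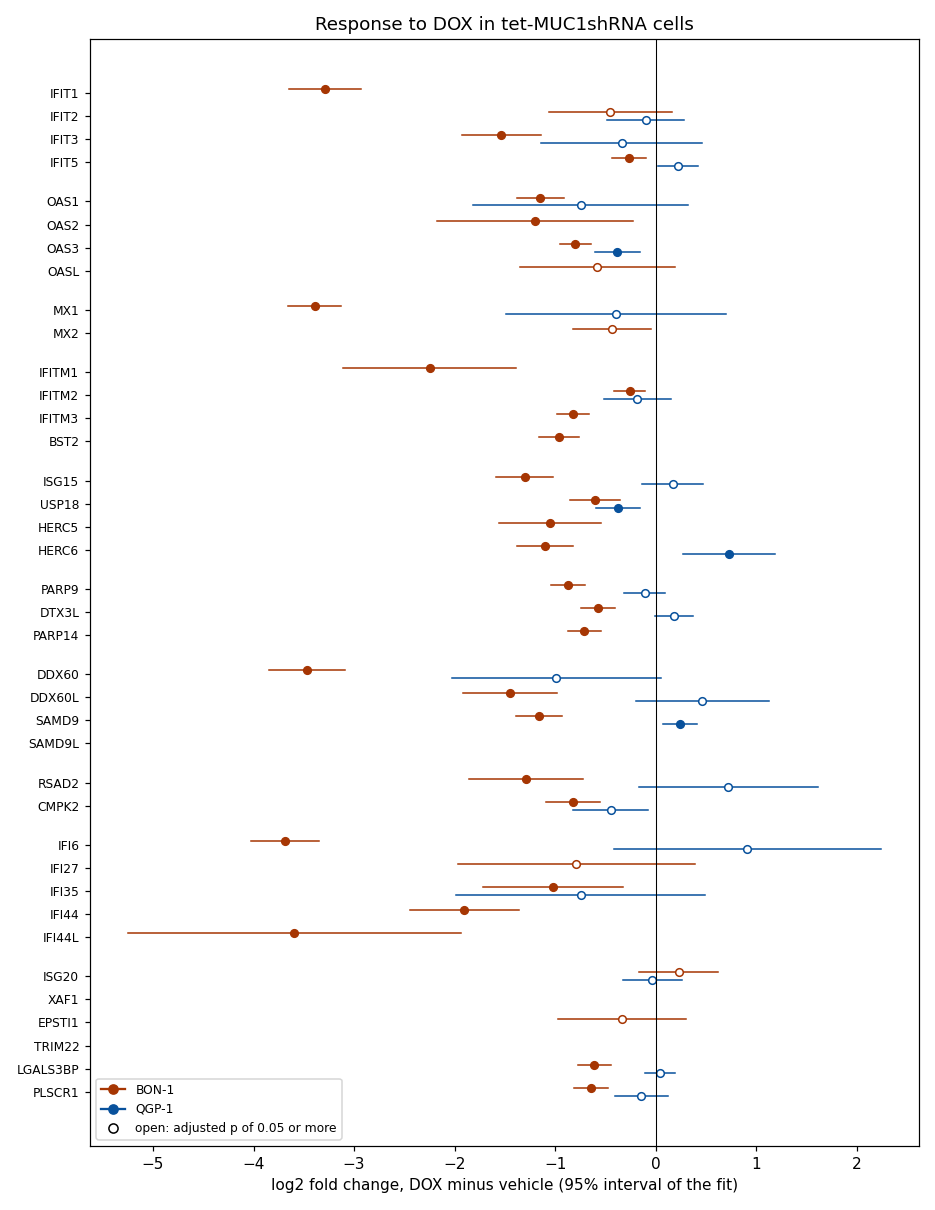
Log2 fold change of DOX minus vehicle (x axis) for each tested member (rows, by role), with the 95% interval of the edgeR fit as a line, in BON-1 (dark orange) and QGP-1 (dark blue) cells. Filled points have an adjusted p under 0.05 and open points do not. The BON-1 points reach from 0.23 for ISG20 to -3.69 for IFI6, whereas the QGP-1 points lie between -0.99 and 0.91.

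In QGP-1 cells few of the effector genes changed with DOX. Only 22 members had enough counts to be tested, and 2 were lower and 2 higher, while 17.7% of the 15089 genes tested were lower and 17.3% higher. The median log2 fold change of the 22 members was -0.11, beside -0.01 for all genes, and no call reached a log2 fold change of 1, which 2.39% of all genes did downward and 1.21% upward. OAS3 was measured at 23.5, 21.3 and 19.4 CPM with vehicle and 17.3, 15.6 and 16.2 CPM with DOX (1.30-fold lower, adjusted p = 0.0115). USP18 was measured at 17.9, 17.9 and 16.0 CPM and 13.5, 13.3 and 13.0 CPM (1.30-fold lower, adjusted p = 0.0108). Both were thus lower in each line. HERC6 rose from 3.15, 2.02 and 2.68 CPM to 5.05, 3.87 and 4.03 CPM (1.66-fold, adjusted p = 0.0169). SAMD9 rose from 50.8, 46.3 and 47.0 CPM to 53.8, 58.3 and 58.3 CPM (1.18-fold, adjusted p = 0.0268). The groups did not overlap for these 4 genes. In all, 6 members were lower and 2 higher in every DOX library, against 23.3% and 23.4% of all genes, and each of the 4 calls depended on the libraries used. That of OAS3 was lost without vehicle replicate 1, those of USP18 and HERC6 without vehicle replicate 2, and that of SAMD9 without vehicle replicate 2 or 3 or DOX replicate 2 or 3, so that a single call was left without vehicle replicate 2. When TPM values were used in place of counts, 0 members were lower and 6 higher, and the median of all genes was then 0.29. With both lines in 1 fit, 6 members were lower and 2 higher. That fit filtered on the libraries of both lines and tested 16598 genes. Members with too few QGP-1 counts were among them, so these counts are not out of 22. The share of all genes called in that fit is not given here.

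Members with no call in QGP-1 cells included genes that fell furthest in BON-1. MX1 was measured at 1.40, 1.28 and 0.495 CPM with vehicle and 0.340, 0.806 and 1.26 CPM with DOX, overlapping values with a log2 fold change of -0.39 (95% interval -1.49 to 0.70). IFI6 was measured at 0.242, 0.451 and 0.165 CPM and 0.913, 0.468 and 0.214 CPM, again overlapping (log2 fold change 0.91, 95% interval -0.42 to 2.24). DDX60 was measured at 0.511, 0.617 and 0.804 CPM and 0.276, 0.442 and 0.262 CPM, without overlap but with no call (log2 fold change -0.99, 95% interval -2.03 to 0.05). These genes were scarce in QGP-1 cells, so the intervals are wide. For abundant members the intervals were narrow. LGALS3BP was measured at 745, 679 and 628 CPM and 718, 693 and 702 CPM (log2 fold change 0.04, 95% interval -0.11 to 0.20). ISG15 was measured at 14.4, 11.8 and 10.4 CPM and 11.5, 15.1 and 14.5 CPM (log2 fold change 0.17, 95% interval -0.14 to 0.47). DTX3L was measured at 34.0, 37.2 and 32.5 CPM and 40.9, 39.7 and 36.7 CPM (log2 fold change 0.18, 95% interval -0.01 to 0.37). The ISG15, DTX3L and LGALS3BP groups overlap. The 16 members not tested in QGP-1 cells included IFIT1, with 0, 14 and 5 raw counts with vehicle and 0, 1 and 3 with DOX, and IFITM3, with 2, 0 and 3 and 1, 3 and 5.

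The difference between the responses was tested as the interaction of line and DOX over the 12 libraries. Of 35 members tested, 17 had a more negative response in BON-1 than in QGP-1 cells, against 7.92% of the 16598 genes tested, and 1 had a more positive response, against 8.80%. Of these members 13 had too few QGP-1 counts to be tested in that line alone, and 2 of the 17 were among them. Of the 22 members tested in both lines, 15 had a more negative response in BON-1. Among members tested in both lines, the difference was largest for IFI6 at -4.62 ± 0.52 on the log2 scale (adjusted p = 1.2e-06). MX1 followed at -3.0 ± 0.42 (adjusted p = 2.4e-05). DDX60 stood at -2.45 ± 0.40 (adjusted p = 1.4e-04). Each of these differences was called in all 12 fits without 1 library. IFI6, MX1 and DDX60 were scarce in QGP-1 cells, however, so the sizes rest on few counts there. In QGP-1 cells IFI6 had 9, 19 and 8 raw counts with vehicle and 43, 18 and 9 with DOX. SAMD9, which moved in opposite directions in the lines, differed by -1.40 ± 0.14 (adjusted p = 1.6e-07). HERC6, which also moved in opposite directions, differed by -1.83 ± 0.24 (adjusted p = 8.0e-06). OAS3 and USP18 were lower in both lines, and the fall of OAS3 was larger in BON-1 cells, with a difference of -0.41 (adjusted p = 0.0194, lost without QGP-1 vehicle replicate 3), while that of USP18 differed by -0.22 (95% interval -0.54 to 0.11). The more positive response was that of EPSTI1, which had 10, 10 and 5 raw counts with vehicle and 0, 0 and 2 with DOX in QGP-1 cells. EPSTI1 was called in only 4 of the 12 fits without 1 library, and its sign turned on the TPM scale. Of the 18 calls, 12 held whichever library was removed. On the TPM scale 26 members had a more negative response in BON-1 and 0 a more positive one, with the median of all genes at -0.33.

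The lines also differed before DOX. With vehicle, 31 of 35 members tested were higher in BON-1 than in QGP-1 cells and 2 were lower, against 39.4% and 38% of the 15835 genes tested, so that most genes of any kind differed between the lines. The median log2 difference of the members was 3.35, beside 0.03 for all genes. For 31 members every BON-1 vehicle library was above every QGP-1 vehicle library, against 39.1% of all genes, and for 2 every one was below, against 40.0%. Of these members 12 passed the filter on low counts only through BON-1 and so had to differ, and 21 of the other 23 were called. With at least 10 counts required in every library, 17 of 21 members were higher in BON-1 and 2 lower.

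Some members had almost no counts in QGP-1 cells. PARP14 had 0 counts in the QGP-1 vehicle libraries and 9764 in BON-1, so it was at least 6028-fold higher in BON-1 when QGP-1 was set at a floor of 3 counts over the group. OASL, by the same bound, was at least 88.3-fold higher, IFI27 at least 37.7-fold and SAMD9L at least 6.79-fold. BST2 had 2 counts in QGP-1 and 3914 in BON-1, a ratio of 3624 with a 95% counting interval of 1003 to 29939. MX2 had 2 and 543 counts, a ratio of 503 (139 to 4163), and HERC5 had 3 and 398 counts, a ratio of 246 (83.5 to 1197). These intervals and floors cover counting error only. Members with more counts in QGP-1 differed widely as well. OAS1, at 0.592, 0.427 and 0.495 CPM in QGP-1 vehicle libraries, was 74.7-fold higher in BON-1 (adjusted p = 2.9e-18). IFI6, at 0.242, 0.451 and 0.165 CPM, was 213-fold higher (adjusted p = 4.9e-18). MX1, at 1.40, 1.28 and 0.495 CPM, was 92.5-fold higher (adjusted p = 1.2e-16). IFITM2, at 6.89, 5.91 and 5.49 CPM, was 36.1-fold higher (adjusted p = 1.6e-20). PLSCR1, at 15.1, 11.4 and 13.9 CPM, was 10.2-fold higher (adjusted p = 5.0e-17). The line difference was smallest, among members called higher, for USP18, at 17.9, 17.9 and 16.0 CPM and 1.40-fold (adjusted p = 3.8e-04).

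Only IFIT2 and LGALS3BP were lower in BON-1 vehicle cells. IFIT2 stood at 5.89, 4.32 and 6.58 CPM in QGP-1 and 3.17, 3.15 and 2.88 CPM in BON-1 (1.78-fold, adjusted p = 0.00148). LGALS3BP stood at 745, 679 and 628 CPM and 402, 373 and 348 CPM (1.78-fold, adjusted p = 4.2e-09). Neither overlapped between the lines. SAMD9 (log2 difference -0.02, 95% interval -0.21 to 0.18) and ISG20 (-0.11, -0.43 to 0.22) were not called, and the sign of both turned positive on the TPM scale. The BON-1 vehicle libraries also enter the comparison of DOX with vehicle in BON-1, so the level and the response in that line share samples.

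To compare genes with each other, levels were taken per length, as deposited TPM values rescaled per library without the abundant noncoding RNAs RN7SK, RN7SL1 and RN7SL2, which made up 78.8% to 80.3% of TPM in QGP-1 vehicle libraries and 50.9% to 65.6% in BON-1 vehicle libraries. The 38 members summed to 758 ± 92.6 TPM (SD, n = 3) in QGP-1 vehicle cells and 974 ± 23.4 TPM with DOX. In BON-1 cells the sum was 3694 ± 131 TPM with vehicle and 2161 ± 87.7 TPM with DOX. The sum was thus higher in BON-1 than in QGP-1 in both conditions. In QGP-1 cells LGALS3BP alone held most of it, at 658, 586 and 514 TPM in the vehicle libraries. Without LGALS3BP the sums were 173, 221, 3284 and 1901 TPM in QGP-1 vehicle, QGP-1 DOX, BON-1 vehicle and BON-1 DOX cells. On the log2(TPM + 1) scale the median change of all genes with DOX was 0.29 in QGP-1 and -0.05 in BON-1 cells. The higher QGP-1 sums with DOX are therefore not read as a rise of the members. On counts, LGALS3BP had a log2 fold change of 0.04 in QGP-1 cells. ISG15 was next in QGP-1 vehicle cells at 66.9, 53.6 and 44.5 TPM, followed by IFITM2 at 27.3, 22.9 and 20.1 TPM. IFIT5 at 17.4, 15.7 and 17.8 TPM and USP18 at 17.8, 17.4 and 14.8 TPM came after them and overlapped each other.

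In BON-1 vehicle cells the order was another. IFITM2 was the most abundant member at 1071, 1015 and 1051 TPM, followed by IFITM3 at 899, 919 and 877 TPM. These levels did not overlap, but the split of reads among the IFITM genes is uncertain, and so is the order of these genes. LGALS3BP came after them at 428, 419.9 and 381 TPM, ahead of ISG15 at 206, 305 and 311 TPM and IFI6 at 222, 265 and 186 TPM. ISG15 and IFI6 overlapped, as did BST2 at 149, 188 and 158 TPM and PLSCR1 at 137, 164 and 152 TPM, which came next. With DOX, IFI6 fell to 20.8, 18.7 and 11.2 TPM, whereas IFITM2 stayed the most abundant at 817, 835 and 901 TPM. Over the 35 tested members the correlation of the log2 vehicle TPM with the BON-1 log2 fold change was 0.09 (Pearson) and 0.09 (Spearman), a description across genes that share the same vehicle libraries in both measures. IFI44L, whose fall was a condition of its being tested, is among the 35.

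**Figure D3:**
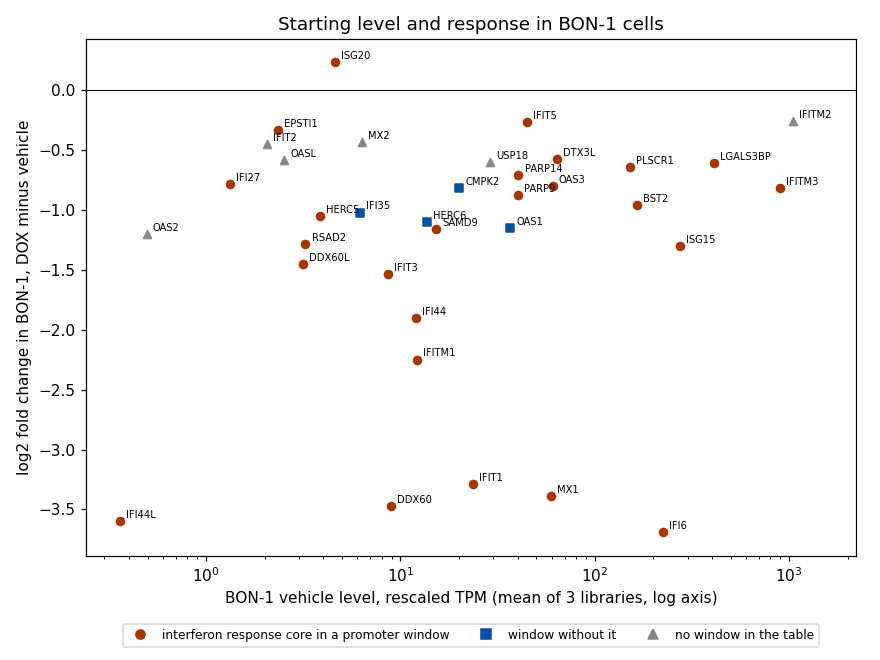
Mean TPM in BON-1 vehicle libraries (x axis, log scale) against the BON-1 log2 fold change of DOX minus vehicle (y axis) for the 35 tested members. Circles had the ISRE core in a promoter window, squares had a window without it and triangles had no window in the table. Members with a fall of more than 3 on the log2 scale range in mean vehicle level from DDX60 (8.95 TPM) to IFI6 (224 TPM). IFI44L stands lower still, but its fall was a condition of its being tested, so nothing is read from it.

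Other genes of the interferon pathway were described from lists written for it. Their counts stand beside the shares over all genes tested, 18.3% lower and 17.0% higher in BON-1 and 17.7% lower and 17.3% higher in QGP-1 cells. Whether their changes lie upstream of those of the effector genes was not tested. Of 9 receptor and kinase genes, 2 were lower and 2 higher in BON-1 cells with DOX, and 3 were lower and 1 higher in QGP-1 cells. With so few genes, nothing about the group is read from these counts. IFNLR1, the specific chain of the type III interferon receptor, was lower in BON-1 (log2 fold change -0.86) and in QGP-1 (-0.41) cells, as was IFNGR1, a chain of the interferon-gamma receptor (-0.43 and -0.62). IFNAR1, a chain of the type I receptor, was higher in BON-1 cells (0.21), and JAK1 was higher in both lines (0.38 and 0.44). IL10RB, a chain of the type III receptor, was lower in QGP-1 cells (-0.38) and not called in BON-1 (0.04).

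Of 7 STAT and IRF genes tested in BON-1 cells, 2 were lower and 1, IRF2, was higher (0.35), again too few to read as a result about the group. DESeq2 called 1 lower and 1 higher. In QGP-1 cells 1 of 8, IRF3, was lower (-0.50), and STAT2, STAT3 and IRF1 (0.53) were higher. IRF9 fell from 84.2, 103 and 95.7 CPM to 34.2, 48.8 and 34.0 CPM in BON-1 cells (log2 fold change -1.28 ± 0.11, adjusted p = 5.5e-10). STAT2, another part of ISGF3, had a log2 fold change of -0.14 in BON-1 (adjusted p = 0.278, no call) and rose in QGP-1 (0.40, adjusted p = 5.4e-04). IRF9 had a log2 fold change of 0.27 in QGP-1 cells and was not called. The difference between the lines was -1.55 for IRF9 (adjusted p = 1.3e-05). STAT3 was slightly lower in BON-1 (-0.21) and higher in QGP-1 (0.24).

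Among the sensors of foreign nucleic acid, 5 of 8 tested genes were lower and 1 higher in BON-1 cells, and 1 of 9 was lower and 3 higher in QGP-1 cells, where the higher ones included MAVS, the adaptor of RIG-I and MDA5 (0.27). DDX58, which encodes RIG-I, was lower in BON-1 (-0.70) and higher in QGP-1 (0.75) cells. IFIH1, which encodes MDA5, was lower in both (-0.70 and -0.52). The others lower in BON-1 were DHX58 (-1.59), EIF2AK2, the kinase PKR (-0.73), and the RNA editor ADAR (-0.47), and TBK1 was higher (0.24). DHX58 was scarce, at 64, 63 and 29 raw counts with vehicle and 13, 9 and 18 with DOX. Of 21 other interferon-induced genes tested, 12 were lower and 1 was higher in BON-1 (10 and 1 by DESeq2), with a median log2 fold change of -0.49. The lowest were SP110 (-1.70), HELZ2 (-1.31) and GBP3 (-1.27), and GBP2, a guanylate-binding protein, was the higher one (0.93). GBP3 was scarce, at 28, 37 and 33 raw counts with vehicle and 10, 7 and 16 with DOX. In QGP-1 cells 1 of 19 such genes was lower and 5 were higher, beside 17.7% and 17.3% of all genes. Of 12 MHC class I genes, 9 were lower in BON-1 cells and 0 higher (edgeR, 0 at an unadjusted p under 0.05 and 0 by DESeq2), with HLA-B at -1.40, and in QGP-1 cells 1 of 10 was lower and 2 higher. Among the negative regulators SOCS3 (1.04) and PTPN2 (0.58) were higher and PTPN6 (-0.38) lower of 5 tested in BON-1. DESeq2 called 2 higher and 0 lower there, so the PTPN6 call was lost with it. In QGP-1 cells edgeR called 0 of 5, with 3 at an unadjusted p under 0.05 and 0 by DESeq2.

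Interferon genes themselves were almost without reads. The 21 ligand genes summed to 4 counts over the QGP-1 vehicle libraries, 8 with DOX, 13 in BON-1 vehicle and 1 in BON-1 DOX libraries, and none passed the filter on low counts used with edgeR. IFNL1, a type III interferon chosen here after its values were seen, gave 2, 2 and 7 counts in the BON-1 vehicle libraries and 0, 0 and 0 with DOX. DESeq2, run without that filter, called IFNL1 higher in BON-1 than in QGP-1 vehicle libraries (adjusted p = 0.0146) and gave no adjusted p for a ligand with DOX.

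**Figure D4:**
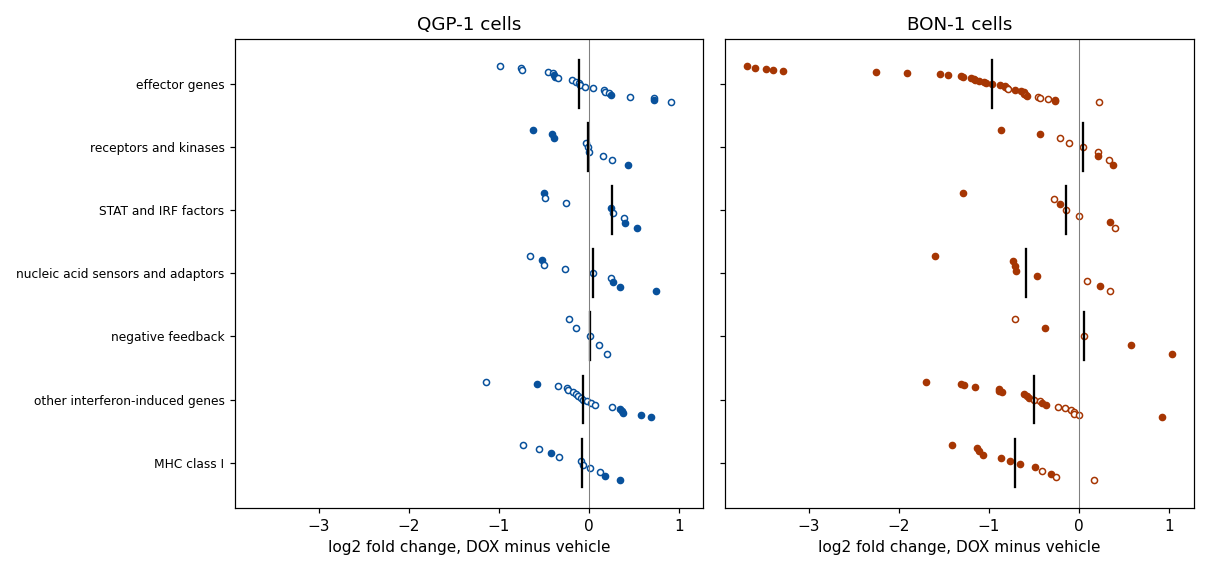
Log2 fold change of DOX minus vehicle (x axis) for each tested gene of the effector group and of 6 pathway lists (rows) in QGP-1 and BON-1 cells. Filled points have an adjusted p under 0.05, open points do not, and black bars are medians. The effector genes have a median of -0.97 in BON-1 and -0.11 in QGP-1 cells.

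Markers of cell types moved with DOX in BON-1 cells beside the effector genes. The 11 neuroendocrine markers summed to 11392 to 14795 CPM with vehicle and 9142 to 9536 CPM with DOX (6108 to 6981 CPM and 6898 to 7529 CPM in QGP-1). In BON-1 cells CHGA fell from 9153, 6355 and 8117 CPM to 2868, 3064 and 2679 CPM (log2 fold change -1.46). The list as a whole was mixed. Of 10 tested in BON-1, 3 were called lower and 2 higher, beside 18.3% and 17.0% of all genes. SCG2 went the other way from CHGA, from 2776, 2516 and 2572 CPM to 3551, 3612 and 3653 CPM. The 4 epithelial markers summed to 2135 to 2512 CPM with vehicle and 2783 to 3268 CPM with DOX, and 2 were called higher. KRT8 rose from 819, 732 and 671 CPM to 1147, 1311 and 977 CPM, and KRT18 from 754, 666 and 652 CPM to 998, 1122 and 995 CPM. EPCAM, at 460, 426 and 433 CPM and 435, 435 and 429 CPM, did not rise. Nor did CDH1, at 479, 415 and 379 CPM and 395, 400 and 381 CPM. The 5 leukocyte markers summed to 25.0 to 27.6 CPM with vehicle and 51.2 to 55.5 CPM with DOX, nearly all of it CD68, a lysosomal protein, while PTPRC, the pan-leukocyte marker CD45, was at a mean of 0.0144 CPM with vehicle and 0.0826 CPM with DOX, and CD3E was at 0 with DOX. The 5 fibroblast markers summed to 5.02 to 6.42 CPM and 10.4 to 11.1 CPM, nearly all of it LUM. The 3 endothelial markers summed to 0.819 to 1.28 CPM and 0.916 to 1.42 CPM. The part of these shifts in the changes of the effector genes was not tested.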

How the data were processed

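RNA was measured in 12 libraries, 3 cultures in each of 4 groups. For each line the authors deposited raw counts per gene and TPM values. TruSeq Stranded mRNA libraries were aligned with STAR to GRCh38. STAR and DESeq2 are named in the submitters' processing notes, and the counting program, its strand setting and its treatment of reads that match several places are not given in the sources used here. Counts were tested with edgeR 4.0.16 (quasi-likelihood, TMM, filterByExpr with a minimum of 10 counts) in R 4.3.3, with Benjamini-Hochberg adjustment over all genes tested and a threshold of 0.05. SE values were taken from the fold change and the F statistic. Each line was fitted alone, the vehicle libraries of both lines were fitted together, and the difference in response was the interaction over 12 libraries. Alternatives were DESeq2 1.42.0, library size scaling, other count filters, limma 3.58.1 on log2(TPM + 1) where the mean TPM reached 1, a shared fit, the replicate number as a block, a minimum log2 change of 1 and leaving out each library. For limma and for levels, TPM was rescaled without RN7SK, RN7SL1 and RN7SL2 over the 25540 genes of both tables.

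All 38 members are named. Values in every library of a line are given for members called with DOX in that line, and in its vehicle libraries for the most abundant. For members without a call in QGP-1 cells, QGP-1 values are given for some only. The pathway genes named are examples called with DOX in either line. Some genes of the pathway and marker lists are not reported here and are left out of the counts. The members and gene lists were chosen with earlier results of these data known. The fits were tested on simulated data. How many transduced populations the cultures of a line came from is not given in the sources used here. The p-values measure the spread between cultures. Libraries of each group differed beyond counting noise, by a chi-square per gene of 5.72 to 28.2, and none was counted as a repeat. Promoter windows came from RefSeq (GRCh38.p14) and gene positions from GENCODE v44. Intervals of counts are 95% and cover counting error only.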

Additional observations from a re-analysis of the deposited data

Results flagged for a closer look

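The responses of the lines to DOX were compared gene by gene, as the log2 fold change in BON-1 cells minus that in QGP-1 cells, and the difference itself passed the test for 18 effector genes and for some genes of the pathway lists (edgeR's interaction term, adjusted over the 16598 genes tested, where 16.7% passed). Among the effector genes the difference was below 0 for IFIT3 (-1.19), IFIT5 (-0.48), OAS3 (-0.41), MX1 (-3.0), ISG15 (-1.46) and HERC6 (-1.83). It was below 0 as well for PARP9 (-0.76), DTX3L (-0.74), DDX60 (-2.45), DDX60L (-1.90), SAMD9 (-1.40) and RSAD2 (-2.0), and for IFI6 (-4.62), LGALS3BP (-0.65) and PLSCR1 (-0.49). The call of IFIT3 was lost without QGP-1 DOX replicate 3 or BON-1 vehicle replicate 2, that of OAS3 without QGP-1 vehicle replicate 3 and that of PLSCR1 without QGP-1 vehicle replicate 2. The differences of IFI27 (-5.52), IFI44L (-4.68) and EPSTI1 (3.04) rest on few QGP-1 counts, and their calls held in 8, 4 and 4 of the 12 fits that left out a library.

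Among the pathway genes named here, the differences of STAT2 (-0.53), STAT3 (-0.44) and IRF9 (-1.55) were below 0. The same held for the sensors DDX58 (-1.44), EIF2AK2 (-0.76) and ADAR (-0.81), for the MHC class I genes HLA-B (-1.07) and HLA-C (-0.68), and for HELZ2 (-1.88), LAP3 (-0.89) and UBE2L6 (-1.21). IL10RB (0.44), IRF2 (0.61), PTPN2 (0.39), SOCS3 (1.02) and GBP2 (1.69) differed in the other direction.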

How the results depend on the processing

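The BON-1 fold changes of the 35 tested members kept their sign under every alternative that gave a value, OAS2 and IFI35 lost their calls in some, and 27 to 29 members were called lower and 0 or 1 higher when a library was left out. DESeq2 called 4, 28, 34 and 19 members in QGP-1, in BON-1, between the lines and for the difference in response. A minimum log2 change of 1, which by its construction removes small changes, left 17 members in BON-1, 0 in QGP-1 (0 lower and 0 higher), 0 lower between the lines and 11 with a more negative response. In QGP-1 cells 8 members were called, 6 of them lower, when both lines shared 1 fit, which tested more members than the fit of QGP-1 alone. Leaving out a library gave 1 to 5 calls in QGP-1, 1 to 3 lower and 0 to 2 higher. On the TPM scale 0 members were lower and 6 higher in QGP-1, 26 had a more negative response in BON-1 and 0 a more positive one. Between the lines 33 members were called (31 higher and 2 lower) whichever library was left out, and 19 (17 higher) with at least 10 counts in every library, where fewer genes are tested. The difference in response was called for 14 to 18 members without a library, 14 to 17 negative and 0 or 1 positive, and the positive one was lost (0) with at least 10 counts in every library and with the replicate block. The cause of the other shifts was not tested.

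The medians of all genes moved on the TPM scale to 0.29 in QGP-1, 0.31 between the lines and -0.33 for the difference in response, and library size scaling gave 0.10 between the lines. Signs of uncalled values turned on the TPM scale for IFIT2 (0.18), IFITM2 (0.13), PARP9 (0.18), ISG20 (0.23) and PLSCR1 (0.17) in QGP-1, for SAMD9 (0.28) and ISG20 (0.17) between the lines, and for BST2 (-0.95), IFI44 (-1.63), ISG20 (-0.0916) and EPSTI1 (-0.14, called on counts) in the difference in response. SAMD9 between the lines also turned with library size scaling (0.0558), and OAS2 in the difference in response with DESeq2 (0.0112). Leaving out 1 library turned the sign of IFIT2 (-0.26 to 0.034), ISG20 (-0.12 to 0.0339) and LGALS3BP (-0.0162 to 0.11) in QGP-1, of SAMD9 (-0.0897 to 0.0347) between the lines, and of OAS2 (-2.0 to 0.76), IFITM2 (-0.16 to 0.0029), BST2 (-0.96 to 1.80), IFI35 (-0.55 to 0.15) and IFI44 (-1.89 to 2.49) in the difference in response.

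Libraries of 1 number in vehicle and DOX groups did not deviate together, with correlations of -0.12, 0.18 and 0.12 in QGP-1 and -0.08, -0.03 and 0.10 in BON-1 over 13120 and 13564 genes, so replicate numbers were not taken as pairs. With the replicate block, 2 members were lower and 3 higher in QGP-1, 28 lower in BON-1, 31 higher and 2 lower between the lines, and 17 had a more negative response in BON-1.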
